A study of Canis lupus familiaris with 12 samples.

Results

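The comparison asks what 5-aminolevulinic acid (ALA) changed in dog blood cells that were cultured with concanavalin A (ConA). It rests on 3 libraries of cells cultured with ConA at 0.5 µg/ml and 3 of cells cultured with ConA at 0.5 µg/ml and ALA at 1 mM, 6 of the 12 libraries in the series. These libraries were picked by their labels, and the comparison was chosen with earlier results of these data known. The other 6 are cells cultured with neither agent (untreated) and cells with ALA at 1 mM and no ConA. All 4 groups are peripheral blood mononuclear cells (PBMCs), the lymphocytes and monocytes that a density gradient separates from other blood cells. They were taken from healthy, specific-pathogen-free male beagles kept as blood donors and cultured for 24 h in RPMI medium with fetal bovine serum, which the controls received too. In each group the libraries are numbered 1 to 3, and a ConA library was compared with the ConA+ALA library of the same number. The labels do not say that a number stands for 1 animal, and each p-value is therefore set by the scatter of these samples, part of which may be technical.

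ALA is the first committed precursor of heme. The enzyme ALAS1 makes it from glycine and succinyl-CoA, heme holds ALAS1 down, and further enzymes turn ALA into protoporphyrin, into which ferrochelatase (FECH) inserts iron. ConA is a plant lectin that cross-links glycoproteins on the surface of T cells, the T cell receptor among them, and so drives T cells to secrete cytokines, which in turn act on the monocytes and B cells of the same culture. Among the genes such cultures are known for are IDO1, a tryptophan-degrading enzyme that interferon gamma induces in monocytes, and TBX21, the transcription factor T-bet of T helper type 1 and cytotoxic cells.

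The 12 libraries held between 13390692 and 21517099 exon reads, and the 6 compared span that whole range. The ConA+ALA library held fewer reads than the ConA library in 3 of 3 numbers (exact sign-flip test, two-sided p = 0.25, the smallest that 3 pairs allow). Reads of mitochondrially encoded genes took 4.48, 23.3 and 17.2% of exon reads with ConA and 4.82, 17.9 and 16.2% with ConA+ALA, so library 1 stood apart from libraries 2 and 3 in both groups. Lymphocyte markers were present: CD3E, a chain of the T cell receptor complex, averaged 197 TPM (a level scaled to gene length and library size) with ConA and 221 TPM with ConA+ALA, and the B cell receptor chain CD79A averaged 1240.5 and 1477 TPM. In the text below a level is given as CPM, the read count scaled to normalised library size, for libraries 1, 2 and 3 in that order. A difference is a log2 fold change ± SE of ConA+ALA against ConA from edgeR's quasi-likelihood test with the library number as a block, and a gene is said to have risen or fallen where its Benjamini-Hochberg adjusted p over all genes tested was below 0.05. Unless another tool or fit is named, passing means by edgeR in the model of all 12 libraries. DESeq2 called 305 of 13099 genes in the same comparison, 171 higher and 134 lower, all 74 of edgeR's among them. By limma-voom 154 of 13358 passed, 82 higher and 72 lower, with 69 of the 74. Where a gene given with its adjusted p by edgeR passed only by DESeq2 or limma-voom, all 3 adjusted p are given.

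ALA changed a small set of genes in the stimulated cells. Of 13358 genes tested, 74 passed the test (0.554%), of which 45 rose (0.337%) and 29 fell (0.217%). At an unadjusted p under 0.05, 740 genes were higher (5.54%) and 571 lower (4.27%). In 3 of 3 numbers 16.2% were higher and 18.1% lower, and 6375 genes had a log2 fold change above 0 (47.7%) and 6983 below. The counts given for gene lists below stand beside these shares. The leading falls included the phospholipases A2 PLA2G2F and PLA2G5, the tryptophan dioxygenase IDO2, the interleukin IL18, the complement C1q chain C1QB and the T helper type 1 factor TBX21. The leading rises included the protease inhibitor SERPINE2, the lipid enzyme GPAT3, the Fc receptor FCGR1A, the tetraspanin CD9 and the chemokine CCL3. Among the rises 32 were at least 2-fold, and among the falls 24 were. All 74 moved in 1 direction in 3 of 3 numbers, and the 3 ConA+ALA libraries did not overlap the 3 ConA libraries in 28 of the 45 rises and 26 of the 29 falls, beside 4.05% and 3.69% of all genes tested. The call rests on the comparison within numbers: without the block 0 genes passed by edgeR, with 445 at an unadjusted p under 0.05 and a smallest adjusted p of 0.0691. It also rests on single libraries, since the count of calls lay between 11 and 21 without ConA 1, ConA 2 or any 1 of the ConA+ALA libraries. In each of the 12 fits that left out 1 library 7 genes passed, namely PLA2G5, PLK2, TBX21, GABARAPL1, CCND1, CD9 and the unnamed gene ENSCAFG00000009228.

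**Figure D1:**
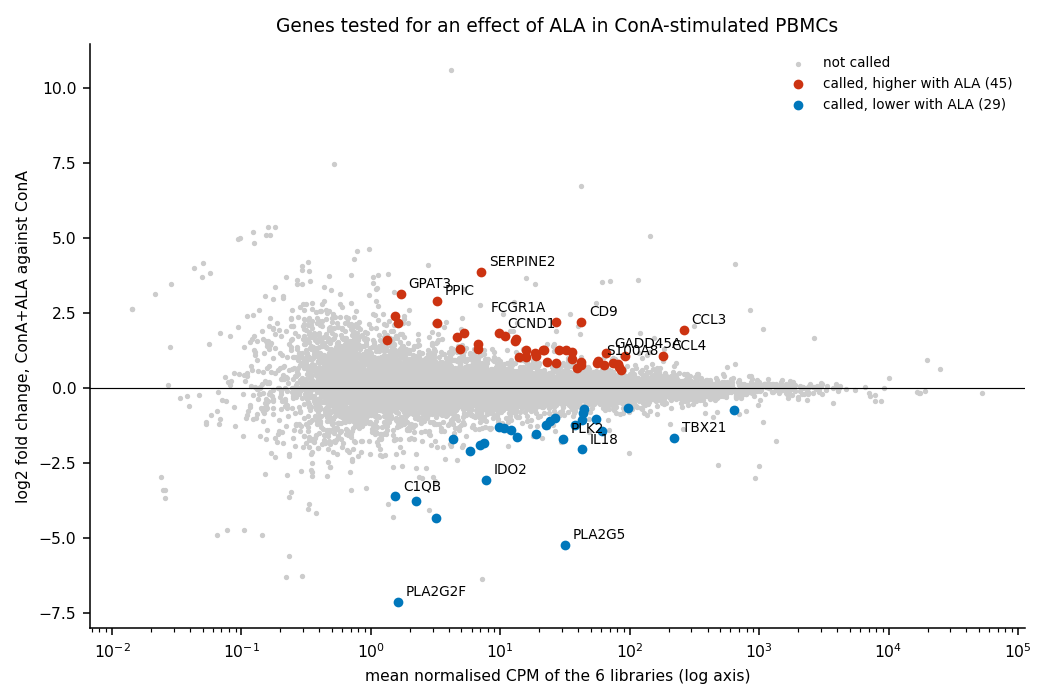
Log2 fold change of ConA+ALA against ConA (vertical axis) against the mean level of the 6 libraries in normalised CPM (horizontal log axis) for the 13358 genes tested. Red points are the 45 rises, blue points the 29 falls and grey points genes that did not pass; many grey points lie as far from 0 as the called genes, among them genes whose spread over the 12 libraries was wide.

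**Figure D2:**
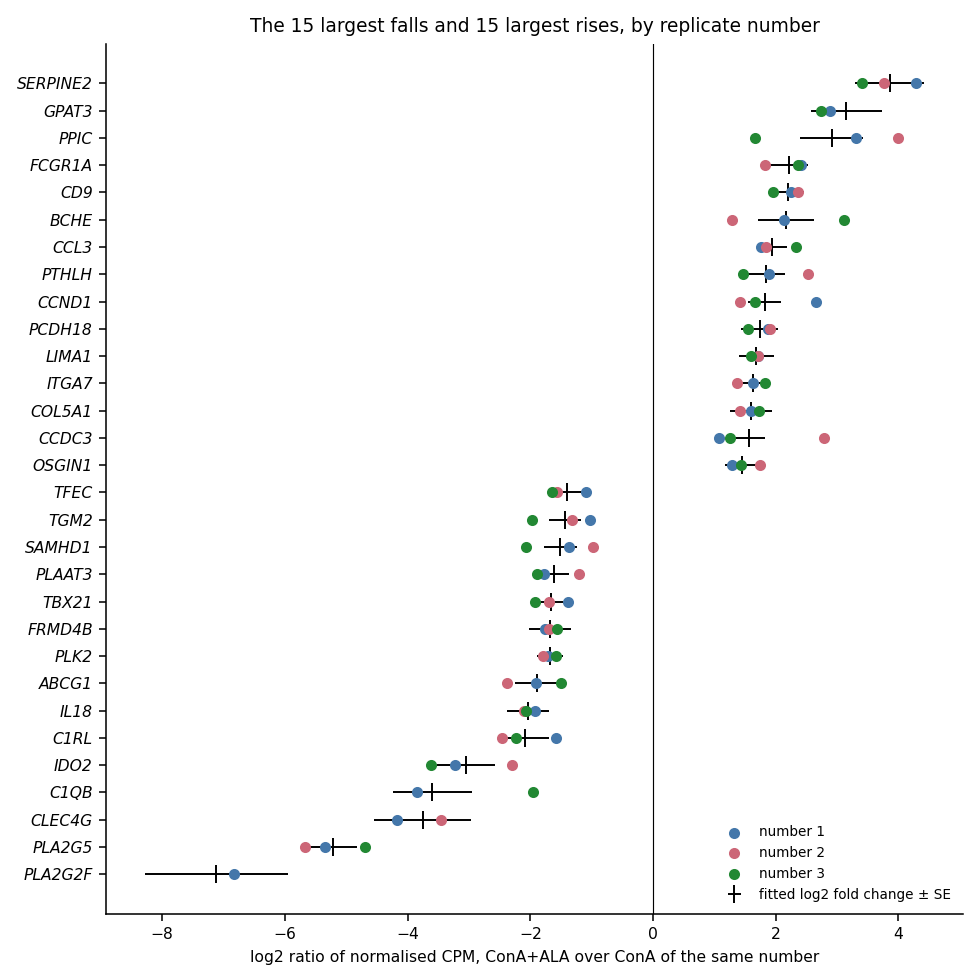
Log2 ratio of normalised CPM, ConA+ALA over ConA of the same number (horizontal axis), for the 15 largest falls and 15 largest rises with a symbol, 1 row per gene and 1 coloured point per number, with the fitted log2 fold change ± SE in black. A number with 0 counts in either library has no point (PLA2G2F in numbers 2 and 3, CLEC4G in number 3, C1QB and GPAT3 in number 2); every point drawn lies on the same side of 0 as its gene's fit.

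The largest falls were in phospholipases A2, enzymes that cut fatty acids from membrane phospholipids. PLA2G5 encodes a secreted member of the family with activity on phosphatidylcholine (chromosome 2, 78762852 to 78781983, CanFam3.1, minus strand, 11 annotated exons). Its level was 119, 45.7 and 19.1 CPM with ConA and 2.93, 0.897 and 0.735 CPM with ConA+ALA. Every ConA+ALA library lay below every ConA library, and the fitted log2 fold change was -5.22 ± 0.38 (adjusted p = 4.5e-05), the smallest p of all genes tested. In cultures without ConA the gene was at 0.36, 0.194 and 0.407 CPM untreated and 0.331, 0.523 and 0.155 CPM with ALA, so the ConA+ALA libraries lay nearer to the cultures without ConA than to the ConA libraries.

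PLA2G2F, a neighbour of PLA2G5 on the same chromosome (chromosome 2, 78716228 to 78723984), was at 4.93, 2.22 and 2.56 CPM with ConA and 0.0432, 0 and 0 CPM with ConA+ALA. The ConA+ALA libraries held 1 read in all, and the ratio of counts, ConA over ConA+ALA, was 173 with a 95% counting interval of 30.7 to 6866 (adjusted p of the fit = 0.0118). PLA2G2D, a secreted member known from lymphoid tissue, was at 29.7, 11.7 and 1.99 CPM with ConA and 0.259, 0.15 and 0 CPM with ConA+ALA. Its groups did not overlap either, but it did not pass by edgeR (log2 fold change -6.37 ± 1.17, adjusted p = 0.0604 by edgeR, 0.039 by DESeq2 and 0.00551 by limma-voom). PLAAT3, an intracellular phospholipase and acyltransferase, fell from 20.4, 18.8 and 21.2 CPM to 5.95, 8.15 and 5.7 CPM (-1.62 ± 0.24, adjusted p = 0.0078). Of the 6 tested members of the phospholipase A2 list 3 fell and 0 rose, and the list's median log2 fold change was -3.42 beside -0.01 for all genes. On the per-length scale the mean ConA level was 45.6 TPM for PLA2G5, 31.2 TPM for PLAAT3, 26.4 TPM for PLA2G2D and 7.6 TPM for PLA2G2F. The call for PLA2G2F was lost without ConA 1, ConA+ALA 1, ConA 2, ConA+ALA 2 or ConA+ALA 3 (adjusted p up to 0.148), and that for PLAAT3 without ConA 1, ConA+ALA 1 or ConA+ALA 3 (up to 0.0866).

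**Figure D3:**
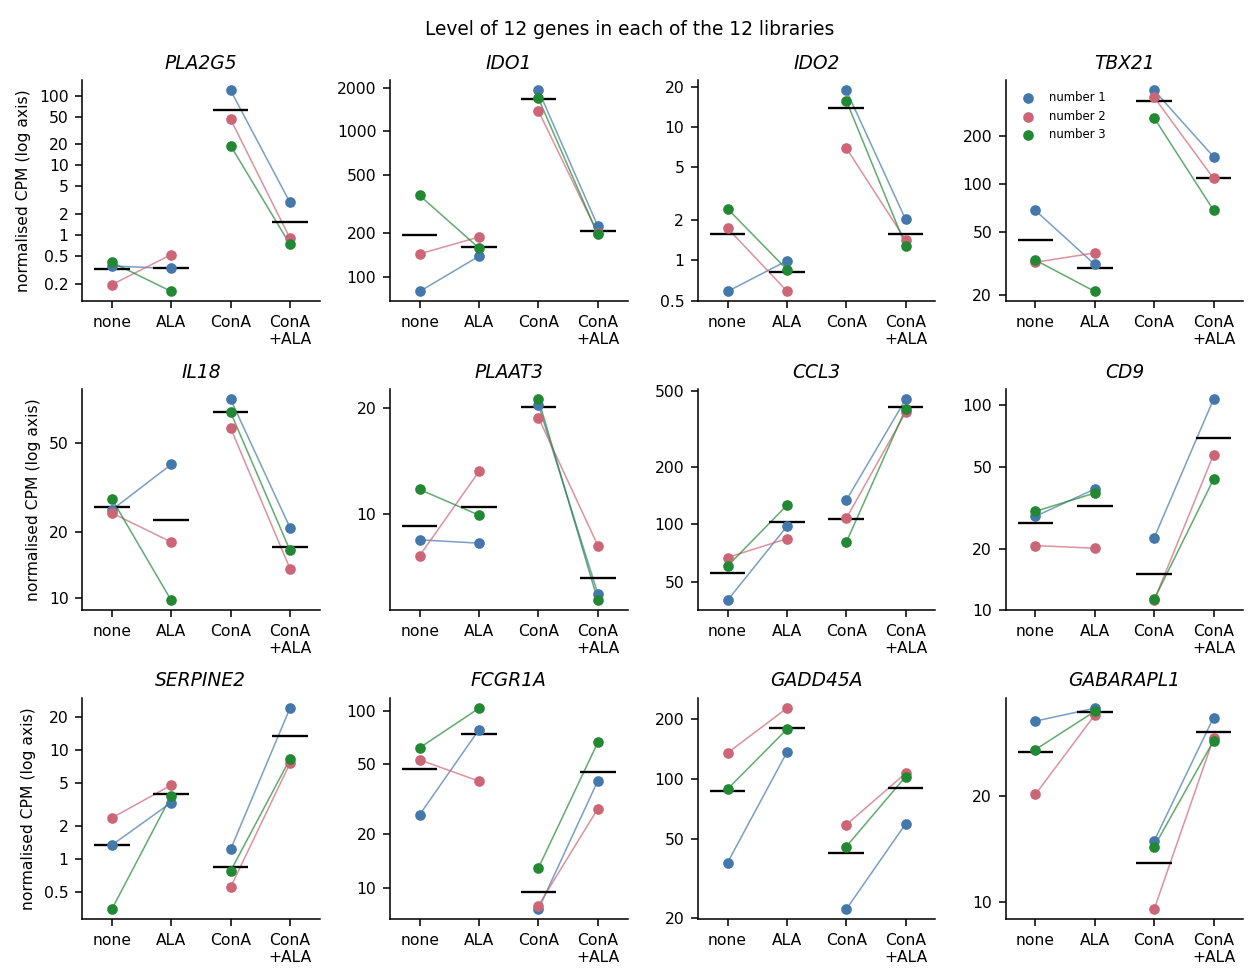
Level of 12 genes in each of the 12 libraries (normalised CPM, log axis), by group, with 1 colour per library number, a line joining the libraries of a number with and without ALA, and a black bar at the group mean. The first 6 panels show genes that were lower in all 3 ConA+ALA libraries than in all 3 ConA libraries, and the last 6 genes that were higher; of the 12 only IDO1 did not pass by edgeR in the model of all 12 libraries, and it passed by DESeq2 and by limma-voom.

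In tryptophan catabolism through kynurenine IDO2 fell, and IDO1 and KYNU lay lower without passing by edgeR, though both passed by DESeq2 and by limma-voom. IDO2, a paralogue of IDO1 with weak tryptophan dioxygenase activity (chromosome 16, 25319035 to 25385515, 14 exons), fell from 18.9, 6.98 and 15.8 CPM to 2.03, 1.42 and 1.29 CPM (log2 fold change -3.05 ± 0.47, adjusted p = 0.00909). IDO1 was far more abundant, with a mean ConA level of 1427 TPM against 9.4 TPM for IDO2. It was at 1918, 1384 and 1687 CPM with ConA and 224, 199 and 196 CPM with ConA+ALA. The 2 groups were far apart and each was tight, while the untreated libraries spread over 79.7, 144 and 363 CPM. IDO1 did not pass by edgeR in the model of all 12 libraries (log2 fold change -3.00 ± 0.49, adjusted p = 0.0694 by edgeR, 6.06e-08 by DESeq2 and 0.0425 by limma-voom). By edgeR it passed where only the 6 stimulated libraries were fitted (adjusted p = 5.8e-10), a fit in which 426 genes passed (3.47%), 223 of them higher (1.81%) and 203 lower (1.65%). That fit leaves 2 residual degrees of freedom, so its small p-values here and below rest largely on spread shared across genes. In all 12 libraries with a block separate for cultures with and without ConA, the adjusted p of IDO1 by edgeR was 0.0504. KYNU, which cleaves kynurenine, was at 21.8, 13.4 and 17.8 CPM with ConA and 12.4, 8.67 and 6.43 CPM with ConA+ALA, without overlap, and did not pass by edgeR (adjusted p = 0.101 by edgeR, 0.0124 by DESeq2 and 0.0335 by limma-voom). WARS, the tryptophanyl-tRNA synthetase that interferon gamma induces, was at 507, 1208 and 1021 CPM and 364, 591 and 474 CPM (adjusted p = 0.274 by edgeR, 0.0143 by DESeq2 and 0.267 by limma-voom). In the kynurenine list 1 of 6 tested members fell and 0 rose, with a median log2 fold change of -0.85. For this list DESeq2 called 0 higher and 3 lower and limma-voom 0 higher and 3 lower. TDO2, the liver enzyme of the same first step, was nearly silent, at 0.077, 0 and 0.142 CPM and 0.388, 1.12 and 0.368 CPM. The IDO2 call was lost without ConA 1, ConA+ALA 1, ConA+ALA 2 or ConA+ALA 3 (adjusted p up to 0.149).

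TBX21, IL18, IL18BP and IL15, genes of the interferon gamma and T helper type 1 axis, fell, while the interferon gamma transcript itself did not separate the groups. TBX21 (chromosome 9, 24077761 to 24086261, 6 exons) was at 386, 349 and 259 CPM with ConA and 148, 108 and 68.2 CPM with ConA+ALA. No library overlapped, and the gene fell by 1.67 ± 0.19 on the log2 scale (adjusted p = 0.00321). IL18, the interleukin that with IL-12 drives interferon gamma release (chromosome 5, 20972871 to 20995348), fell from 79, 58.7 and 69 CPM to 20.8, 13.6 and 16.5 CPM (-2.04 ± 0.34, adjusted p = 0.0324). Its soluble antagonist IL18BP fell as well, from 79.5, 46.6 and 33.9 CPM to 31.8, 17.3 and 18.8 CPM (-1.22 ± 0.21, adjusted p = 0.0171). IL15, a growth factor of natural killer and memory CD8 T cells, fell from 23.6, 39.8 and 36.1 CPM to 11.8, 16.6 and 17.6 CPM (-1.10 ± 0.21, adjusted p = 0.0308). IFNG was at 101, 28.8 and 106 CPM with ConA and 62.4, 42.2 and 61.9 CPM with ConA+ALA; the groups overlapped and the adjusted p was 0.913. The other T-box factor of cytotoxic cells, EOMES, was at 14.9, 11 and 10.7 CPM and 20, 15.6 and 18.1 CPM, higher in each number, with an adjusted p of 0.359.

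Of 10 tested T helper transcription factors TBX21 fell and 0 rose (median log2 fold change -0.42). By edgeR 0 of 11 tested interferon gamma targets passed, with 2 lower at an unadjusted p under 0.05, 2 falls by DESeq2 and 1 by limma-voom. All 11 had a log2 fold change below 0, with a median of -0.32, and 8 of 11 were lower in 3 of 3 numbers, beside 18.1% of all genes. IRF1, the factor that interferon gamma signalling switches on first, was at 735, 734 and 744 CPM and 648, 624 and 495 CPM (adjusted p = 0.601). Of 18 tested inflammatory mediators IL18 and IL15 fell and CSF1 rose. The IL18 call was lost without ConA 1, ConA+ALA 1, untreated 2, ALA 2, ConA 2, ConA+ALA 2, ConA 3 or ConA+ALA 3 (adjusted p up to 0.221) and with a block separate for cultures with and without ConA (0.0818), that of IL15 without ConA 1, ConA+ALA 1, ALA 2, ConA 2, ConA+ALA 2, ConA 3 or ConA+ALA 3 (up to 0.2) and that of IL18BP without ConA 1, ConA+ALA 1, ConA 2, ConA+ALA 2 or ConA+ALA 3 (up to 0.171).

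Of 9 tested complement genes 1 fell and 0 rose, with a median log2 fold change of -0.84. In the complement list DESeq2 called 0 higher and 2 lower and limma-voom 0 higher and 1 lower. C1QB, a chain of complement C1q made by macrophages (chromosome 2, 76650586 to 76655549), was low with ConA at 6.2, 1.74 and 0.711 CPM and lower with ConA+ALA at 0.432, 0 and 0.184 CPM (-3.60 ± 0.64, adjusted p = 0.0171). The other chains did not pass by edgeR: C1QC was at 4.08, 2.22 and 1.99 CPM and 0.0863, 0.449 and 0 CPM (adjusted p = 0.145 by edgeR, 0.00478 by DESeq2 and 0.113 by limma-voom), and C1QA at 6.85, 7.13 and 3.2 CPM and 2.68, 3.89 and 1.56 CPM (adjusted p = 0.373). Untreated cells had far more of all 3 chains, for C1QB 11.4, 8.92 and 5.18 CPM. C1RL, a protease-like relative of complement C1r that the complement list does not hold, fell from 8.9, 11.6 and 7.82 CPM to 2.98, 2.09 and 1.65 CPM (-2.09 ± 0.40, adjusted p = 0.0281). CLEC4G, a C-type lectin, fell from 7.74, 4.12 and 0.711 CPM to 0.432, 0.374 and 0 CPM (-3.76 ± 0.78, adjusted p = 0.0456).

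ABCG1, which exports cholesterol from macrophages to high-density lipoprotein, fell from 17.8, 6.98 and 8.1 CPM to 4.75, 1.35 and 2.85 CPM (-1.89 ± 0.36, adjusted p = 0.0296). NR1H3, the liver X receptor alpha that controls ABCG1, was at 77.4, 81.3 and 54.1 CPM with ConA and 29, 25.4 and 22.2 CPM with ConA+ALA, without overlap, and did not pass by edgeR (adjusted p = 0.225 by edgeR, 0.000286 by DESeq2 and 0.263 by limma-voom). TFEC, a myeloid member of the MiT family of transcription factors, fell from 19.9, 15 and 17.9 CPM to 9.36, 5.09 and 5.7 CPM (-1.40 ± 0.27, adjusted p = 0.0296). TGM2, tissue transglutaminase, fell from 56.9, 111 and 99.6 CPM to 27.9, 44.3 and 25.5 CPM (-1.43 ± 0.26, adjusted p = 0.0398). SAMHD1, which hydrolyses deoxynucleotides and restricts retroviruses in myeloid and resting T cells, fell from 37.2, 15.6 and 30.3 CPM to 14.5, 7.93 and 7.26 CPM (-1.51 ± 0.27, adjusted p = 0.0324). In bulk cultures fewer cells of a type and less RNA per cell cannot be told apart. The summed level of the 12 tested monocyte markers was 606, 235 and 256 CPM with ConA and 586, 241 and 257 CPM with ConA+ALA, within 1 group's spread of the other, and 1 of the 12 passed (FCGR1A, which rose). For these markers DESeq2 called 2 higher and 2 lower and limma-voom 2 higher and 0 lower. Of 13 tested scavenger receptors and lectins, a list that does not hold CLEC4G, 0 passed by edgeR. At an unadjusted p under 0.05 4 were higher and 3 lower, with 4 higher and 2 lower by DESeq2 and 1 higher and 1 lower by limma-voom. Without ConA 1 the adjusted p was 0.209 for C1QB, 0.432 for CLEC4G and 0.313 for ABCG1. Without ConA+ALA 2 it was 0.2 for C1RL and 0.2 for TFEC, and without ConA+ALA 3 0.239 for SAMHD1 and 0.193 for TGM2. With a block separate for cultures with and without ConA it was 0.101 for TGM2.

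PLK2 and FRMD4B complete the 15 largest falls. PLK2, a polo-like kinase induced by stress and p53 (chromosome 2, 45360374 to 45367441), was at 65, 40.6 and 34 CPM with ConA and 19.9, 11.7 and 11.4 CPM with ConA+ALA. The ratio was nearly the same in each number, and the log2 fold change was -1.69 ± 0.21 (adjusted p = 0.00321). FRMD4B, a scaffold protein of cell junctions, fell from 10.8, 4.36 and 4.62 CPM to 3.19, 1.35 and 1.56 CPM (-1.68 ± 0.35, adjusted p = 0.044, and 0.32 without ConA 1). The other 13 falls had log2 fold changes between -4.32 and -0.65. Those with a symbol are PLAAT4, which is a relative and neighbour of PLAAT3 on chromosome 18, the adhesion protein NINJ1, the sodium pump subunit ATP1B1, the ganglioside synthase ST3GAL5, the fatty acid transporter SLC27A6, the NF-kappa B adaptor TIFA, the DNA helicase FBH1, the RNA-binding protein RBPMS, KIAA0513 and IL18BP.

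Among the rises were a pair of chemokines. CCL3 (MIP-1 alpha) and CCL4 (MIP-1 beta) attract T cells and monocytes. CCL3 was at 134, 108 and 80.7 CPM with ConA and 453, 387 and 404 CPM with ConA+ALA, and CCL4 at 153, 102 and 94.3 CPM and 293, 236 and 207 CPM. In both genes every ConA+ALA library lay above every ConA library. The log2 fold change was 1.95 ± 0.24 for CCL3 (adjusted p = 0.00675) and 1.09 ± 0.15 for CCL4 (adjusted p = 0.00526). The annotated span of CCL3 (chromosome 9, 37686480 to 37695573, plus strand) lies inside that of CCL4 (chromosome 9, 37676966 to 37710209, minus strand), and since counting by strand is not stated, reads of the 2 genes cannot be told apart where their exons overlap. Without ConA 2 the adjusted p was 0.0596 for CCL3 and 0.053 for CCL4.

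Of 13 tested chemokines 2 rose and 0 fell, with a median log2 fold change of 0.74, and 8 of the 13 were higher in 3 of 3 numbers, beside 16.2% of all genes. Among the chemokines DESeq2 called 4 higher and 1 lower and limma-voom 2 higher and 0 lower. CCL7, a monocyte attractant, was at 481, 377 and 451 CPM with ConA and 1977, 1458 and 1729.7 CPM with ConA+ALA and did not pass by edgeR (adjusted p = 0.225 by edgeR, 0.00561 by DESeq2 and 0.23 by limma-voom, 3.56e-08 by edgeR in the fit of the 6 stimulated libraries and 0.252 by edgeR with the separate block). CCL13 was at 1.42, 1.9 and 6.89 CPM and 12.7, 13 and 40.9 CPM (adjusted p = 0.285 by edgeR, 0.00453 by DESeq2 and 0.425 by limma-voom, and 1.82e-06 in that fit). Both had wide spreads among cultures without ConA, for CCL7 335, 1383 and 1378 CPM untreated.

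CD9, a tetraspanin of platelets, monocytes and activated lymphocytes (chromosome 27, 38742963 to 38774576, 11 exons), rose from 22.6, 11.2 and 11.3 CPM to 107, 57.4 and 43.6 CPM (log2 fold change 2.21 ± 0.25, adjusted p = 0.00321). Its lowest ConA+ALA library was above its highest ConA library, and cultures without ConA, at 28.8, 20.7 and 30.4 CPM untreated and 39.1, 20.1 and 37.3 CPM with ALA, lay below every ConA+ALA library, those of number 2 within the range of the ConA libraries and the others above it. ITGA7, the laminin-binding integrin alpha 7, rose from 6.7, 6.18 and 6.61 CPM to 20.7, 15.9 and 23.5 CPM (1.62 ± 0.23, adjusted p = 0.00675). PCDH18, a protocadherin, rose from 2.27, 5.07 and 7.75 CPM to 8.37, 18.9 and 22.5 CPM (1.74 ± 0.30, adjusted p = 0.031). LIMA1, an actin-bundling protein, rose from 3.27, 1.66 and 1.63 CPM to 10.7, 5.46 and 4.96 CPM (1.69 ± 0.29, adjusted p = 0.0158).

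COL5A1, a fibrillar collagen chain, rose on a low level, from 0.655, 0.872 and 0.497 CPM to 1.98, 2.32 and 1.65 CPM (1.60 ± 0.34, adjusted p = 0.0466), and did not pass in the fit of the 6 stimulated libraries (adjusted p = 0.244) or by limma-voom (0.167). Both groups lay far below the untreated cells, at 31.8, 16.8 and 14 CPM. CCDC3, a secreted protein of vessel and fat cells, rose from 10.9, 2.46 and 7.32 CPM to 23.1, 17.1 and 17.5 CPM (1.56 ± 0.26, adjusted p = 0.0171). In the list of integrins and tetraspanins, which does not hold ITGA7, CD9 rose and the other 14 of 15 tested members did not pass. Platelet markers lay higher beside CD9 in 3 of 3 numbers: the summed level of the 4 tested platelet markers was 7.09, 23.7 and 25.7 CPM with ConA and 26.6, 105 and 27.8 CPM with ConA+ALA, most of it PPBP at 2.58, 13 and 15 and 19.7, 95 and 15.4 CPM, and 0 of the 4 passed, with 1 higher and 0 lower at an unadjusted p under 0.05, 1 higher and 0 lower by DESeq2 and 0 by limma-voom. Their part in the CD9 result was not tested. The adjusted p without 1 library reached 0.0541 for ITGA7 (ConA 2), 0.193 for PCDH18 (ConA+ALA 3), 0.171 for LIMA1 (ConA 1), 0.382 for COL5A1 (ConA 1) and 0.116 for CCDC3 (ConA+ALA 3).

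SERPINE2, protease nexin 1, which inhibits thrombin, urokinase and plasmin (chromosome 37, 29700024 to 29724228), had the largest log2 fold change of the 45 rises. It was at 1.23, 0.555 and 0.782 CPM with ConA and 24.2, 7.55 and 8.27 CPM with ConA+ALA, without overlap (log2 fold change 3.86 ± 0.56, adjusted p = 0.00909). Of the 6 tested plasminogen activators and inhibitors 1 rose and 0 fell, with a median log2 fold change of 1.81. Among these 6 DESeq2 called 3 higher and 0 lower and limma-voom 1 higher and 0 lower. The intracellular plasminogen activator inhibitor SERPINB2 was at 7.16, 12.2 and 3.41 CPM with ConA and 339, 206 and 292 CPM with ConA+ALA, further apart than SERPINE2, yet it did not pass by edgeR (log2 fold change 5.06 ± 1.31, adjusted p = 0.249 by edgeR, 0.000296 by DESeq2 and 0.194 by limma-voom). Its level in cultures with ALA and no ConA ran from 13.8 to 330.4 CPM. PLAUR, the urokinase receptor, was at 91.3, 82.4 and 84.3 CPM and 231, 149.7 and 223 CPM (adjusted p = 0.522). The SERPINE2 call was lost without ConA 1, ConA+ALA 1 or ConA 2 (adjusted p up to 0.112).

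FCGR1A, CSF1 and S100A8, genes of the monocyte and granulocyte lineages, rose. FCGR1A, the high-affinity IgG receptor CD64 (chromosome 17, 59092933 to 59102015), rose from 7.55, 7.93 and 12.9 CPM to 40.2, 28 and 66.4 CPM (2.22 ± 0.32, adjusted p = 0.0171), and it overlaps a histone gene on the other strand. CSF1, the growth factor of macrophages, rose from 37.2, 7.45 and 13.4 CPM to 84.6, 27.1 and 22.2 CPM (1.27 ± 0.23, adjusted p = 0.0214), higher in each number though the groups overlapped because library 1 was high in both. S100A8, a calcium-binding protein of neutrophils and monocytes, rose from 43.6, 38.8 and 37.5 CPM to 82.4, 66.9 and 73.8 CPM (0.90 ± 0.15, adjusted p = 0.0118). The related S100A12 was at 1.62, 4.6 and 0 CPM and 9.19, 18.5 and 7.72 CPM and did not pass by edgeR (adjusted p = 0.0828 by edgeR, 0.01 by DESeq2 and 0.0335 by limma-voom).

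Among 8 tested neutrophil markers S100A8 passed by edgeR, with 4 higher and 0 lower at an unadjusted p under 0.05. Of these markers DESeq2 called 2 higher and 0 lower and limma-voom 2 higher and 0 lower. Their summed level was 111, 106 and 157 CPM with ConA and 904, 695 and 2403 CPM with ConA+ALA (exact permutation test, two-sided p = 0.1, the smallest that 3 against 3 allow). Most of that sum was MMP9, a gelatinase that monocytes make too, at 50.3, 29.9 and 117 CPM and 784, 569.8 and 2324 CPM (adjusted p = 0.175 by edgeR, 2.68e-05 by DESeq2 and 0.117 by limma-voom). The chemokine receptor CXCR2 of the same list had 0 reads in all 6 libraries, and CSF3R had 4 to 19 reads a library. Other members were present and higher in each number. LTF had 365, 298 and 22 reads with ConA and 670, 508 and 32 with ConA+ALA (log2 fold change 0.87). CAMP had 43, 137 and 0 reads and 168, 236 and 2 reads (1.29). The FCGR1A call was lost without ConA 1, ConA+ALA 1, ConA 2, ConA 3 or ConA+ALA 3 (adjusted p up to 0.171) and with the separate block (0.0818), that of CSF1 without ConA 1, ConA+ALA 1, ConA 2 or ConA+ALA 2 (up to 0.171) and that of S100A8 without ConA 1, ConA 2, ConA+ALA 2 or ConA+ALA 3 (up to 0.124).

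GADD45A and GADD45G, small proteins induced by DNA damage and other stress that act on p38 kinase signalling and the cell cycle, both rose. GADD45A went from 22.1, 58.6 and 45.5 CPM to 59.3, 106 and 102 CPM (1.15 ± 0.18, adjusted p = 0.011) and GADD45G from 8.13, 22.8 and 5.76 CPM to 16.8, 34 and 23.3 CPM (1.18 ± 0.25, adjusted p = 0.0466). GADD45G overlapped between the groups, GADD45A did not. CDKN1A, the p53 target p21 that halts the cell cycle, was at 20.3, 10.8 and 13.3 CPM with ConA and 27.6, 20.4 and 27.7 CPM with ConA+ALA, without overlap, and did not pass by edgeR (adjusted p = 0.0697 by edgeR, 0.00737 by DESeq2 and 0.0426 by limma-voom). Of 17 tested p53 and GADD45 genes, a list that does not hold PLK2, 2 rose and 0 fell, and the list's median was 0.02. In that list DESeq2 called 4 higher and 0 lower and limma-voom 3 higher and 0 lower.

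NRF2 is the transcription factor that switches on antioxidant and detoxifying enzymes. OSGIN1, an NRF2 target, rose from 3.89, 3.17 and 3.62 CPM to 9.49, 10.6 and 9.74 CPM (1.46 ± 0.29, adjusted p = 0.0343), as 1 of 16 tested NRF2 targets to pass (median log2 fold change 0.29, 9 of 16 higher in 3 of 3 numbers, beside 16.2% of all genes). Among the NRF2 targets DESeq2 called 4 higher and 1 lower and limma-voom 2 higher and 0 lower. The list does not hold PIR, an NRF2-responsive gene that also rose. NQO1, the quinone reductase, was at 14.8, 17.8 and 22.5 CPM with ConA and 81.3, 54 and 59.1 CPM with ConA+ALA and did not pass by edgeR (adjusted p = 0.152 by edgeR, 1.78e-06 by DESeq2 and 0.139 by limma-voom, and 3.81e-05 by edgeR in the fit of the 6 stimulated libraries). The cystine transporter SLC7A11 was at 5.04, 4.28 and 5.61 CPM and 15.6, 8.3 and 7.08 CPM (adjusted p = 0.162 by edgeR, 0.0463 by DESeq2 and 0.0198 by limma-voom). GABARAPL1, an ATG8 protein of the autophagosome membrane (chromosome 27, 35782330 to 35791569), rose from 14.9, 9.51 and 14.4 CPM to 33.5, 29.2 and 28.8 CPM (1.26 ± 0.17, adjusted p = 0.0047). It was the 1 of 14 tested autophagy genes to pass by edgeR. Of the autophagy list DESeq2 called 2 higher and 0 lower and limma-voom 1 higher and 0 lower, and the cargo receptor SQSTM1 was at 119, 63.7 and 73.8 CPM and 195, 108 and 108 CPM (adjusted p = 0.171 by edgeR, 0.0356 by DESeq2 and 0.103 by limma-voom). Leaving out 1 library took the adjusted p to 0.112 for GADD45A (ConA 1), 0.268 for GADD45G (ConA+ALA 3) and 0.177 for OSGIN1 (ConA+ALA 2), and the separate block took it to 0.0534 for GADD45G.

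The remaining large rises were in genes of mixed roles. GPAT3, which starts triacylglycerol synthesis from glycerol phosphate, rose from 0.539, 0 and 0.426 CPM to 3.97, 2.39 and 2.85 CPM (3.15 ± 0.58, adjusted p = 0.0276, and 0.0639 by limma-voom). PPIC, a cyclophilin of the secretory pathway, rose from 0.385, 0.555 and 1.42 CPM to 3.8, 8.82 and 4.5 CPM (2.91 ± 0.52, adjusted p = 0.0171). BCHE, butyrylcholinesterase, rose from 0.424, 0.951 and 0.426 CPM to 1.86, 2.32 and 3.68 CPM (2.16 ± 0.46, adjusted p = 0.0466). BCHE did not pass in the fit of the 6 stimulated libraries (adjusted p = 0.0857) or by limma-voom (0.128). CCND1, cyclin D1, rose from 1.04, 8.17 and 5.12 CPM to 6.56, 21.8 and 16.3 CPM (1.82 ± 0.27, adjusted p = 0.0078). PTHLH, parathyroid hormone-related protein, rose from 0.501, 1.35 and 5.33 CPM to 1.86, 7.78 and 14.8 CPM (1.84 ± 0.31, adjusted p = 0.0153). In both CCND1 and PTHLH library 1 was the lowest of each group and the groups overlapped, while each number rose.

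DLA-DOA, the alpha chain of the DO protein that tempers peptide loading on class II molecules in B cells, rose from 20.5, 38.9 and 32 CPM to 32.5, 82.3 and 46.5 CPM (0.76 ± 0.15, adjusted p = 0.0308). It was the 1 of 13 tested antigen presentation genes to pass by edgeR. Most of that list lay the other way: 10 of 13 were below 0 (median -0.15) and 6 were lower in 3 of 3 numbers, beside 18.1% of all genes. At an unadjusted p under 0.05 1 was higher and 2 lower. For this list DESeq2 called 1 higher and 1 lower and limma-voom 1 higher and 0 lower. B cell markers summed to 1442, 2491 and 2048 CPM with ConA and 1836, 2722 and 2379.6 CPM with ConA+ALA, higher in 3 of 3 numbers, and 0 of 11 tested passed, with 3 higher and 0 lower at an unadjusted p under 0.05, 1 higher and 0 lower by DESeq2 and 0 by limma-voom; their part in the DLA-DOA result was not tested. The other 23 rises had log2 fold changes between 0.62 and 2.40. They include LRP1, the endocytic receptor that takes up serpin and protease complexes, at 30, 7.77 and 8.39 CPM and 63.3, 15.4 and 12 CPM, PIR, an NRF2-responsive nuclear protein, the activin antagonist FST, the T cell signalling protein THEMIS, LY6E, PLXND1, CRYZ, PLCD1, ESYT3, TMBIM1, PSEN2, PDE7A, WDFY4, BIN1, PDSS1, RNF157, CATSPERG, GH1 and FADS1. FADS1, a fatty acid desaturase, had only 42% of its exon reads unique to it, so its value is uncertain to that extent. Leaving out 1 library took the adjusted p to 0.171 for GPAT3, 0.15 for PPIC (both ConA 1), 0.256 for BCHE, 0.116 for PTHLH (both ConA+ALA 3) and 0.2 for DLA-DOA (ConA+ALA 2).

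Heme synthesis is the pathway that ALA enters. By edgeR 0 of its 9 tested genes passed, with 1 higher (ALAS2) and 1 lower (ALAS1) at an unadjusted p under 0.05, the same pair that passed by DESeq2, and 0 passed by limma-voom. Of the 9, 8 had a log2 fold change below 0 (median -0.23) and 3 were lower in 3 of 3 numbers. Over all genes tested 6983 of 13358 were below 0, the median was -0.01 and 18.1% were lower in 3 of 3 numbers. ALAS1 (chromosome 20, 37552814 to 37566638), the enzyme that makes ALA, was at 1709, 2405 and 2139 CPM with ConA and 533, 643 and 667 CPM with ConA+ALA. The groups lay far apart and each was tight, whereas untreated libraries ranged over 324, 701 and 1534 CPM. The log2 fold change was -1.76 ± 0.37 with an adjusted p of 0.122 by edgeR, 0.000742 by DESeq2 and 0.122 by limma-voom, and 2.08e-07 in the fit of the 6 stimulated libraries. FECH was at 21, 15.1 and 12.5 CPM and 15.9, 10.2 and 13.9 CPM (adjusted p = 0.716). ALAS2, the form of red cell precursors, was at 18.8, 85.5 and 68 CPM and 35.3, 129.7 and 148 CPM, higher in each number (adjusted p = 0.334 by edgeR, 0.0424 by DESeq2 and 0.313 by limma-voom), and of the 8 tested red cell markers 0 passed, with 3 higher and 0 lower at an unadjusted p under 0.05, 3 higher and 0 lower by DESeq2 and 0 by limma-voom. AHSP, the chaperone of alpha globin, was at 1.16, 8.09 and 5.4 CPM and 3.02, 14.1 and 13.2 CPM (adjusted p = 0.158 by edgeR, 0.0438 by DESeq2 and 0.205 by limma-voom).

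HMOX1, the heme oxygenase that heme itself induces, was at 93, 33.3 and 65.5 CPM with ConA and 44.7, 59.2 and 69.5 CPM with ConA+ALA. It was lower in number 1 and higher in numbers 2 and 3 (log2 fold change -0.10 ± 0.57, adjusted p = 0.985). Biliverdin reductase BLVRB, the next step of heme breakdown, was at 32.2, 35.8 and 39.9 CPM and 65.4, 45.5 and 64.6 CPM (adjusted p = 0.437). TFRC, the transferrin receptor, was at 183, 57.1 and 51.9 CPM and 116, 61.8 and 43 CPM (adjusted p = 0.839). Of 14 tested genes of heme breakdown and iron 0 passed, with 2 higher and 0 lower at an unadjusted p under 0.05 and 0 by DESeq2 or limma-voom. Of 13 transporters of ALA and porphyrins 0 passed, with 2 higher and 1 lower at an unadjusted p under 0.05 (5.54% and 4.27% of all genes tested) and 0 by DESeq2 or limma-voom.

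T cell cytokines lay higher with ALA, but by edgeR 0 of 19 tested passed, with 8 higher and 1 lower at an unadjusted p under 0.05 (5.54% and 4.27% of all genes tested), 4 rises by DESeq2 and 5 by limma-voom. Their median log2 fold change was 0.51, 15 of 19 were positive and 11 of 19 were higher in 3 of 3 numbers, beside 47.7% and 16.2% of all genes tested. IL2, the T cell growth factor, was at 6.55, 18.6 and 21.9 CPM with ConA and 32.6, 64.7 and 96.3 CPM with ConA+ALA (2.06 ± 0.51, adjusted p = 0.193 by edgeR, 0.0323 by DESeq2 and 0.00315 by limma-voom). CSF2 (GM-CSF) was at 7.39, 20.1 and 15.3 CPM and 70.8, 109 and 108 CPM (2.83 ± 0.62, adjusted p = 0.162 by edgeR, 0.00237 by DESeq2 and 0.0249 by limma-voom). In both every ConA+ALA library lay above every ConA library, and in the fit of the 6 stimulated libraries the adjusted p was 2.56e-07 for IL2 and 2.26e-08 for CSF2. By edgeR with the separate block it was 3.26e-05 for CSF2. IL4, the type 2 cytokine, was at 0.847, 2.22 and 1.28 CPM and 4.1, 6.88 and 6.53 CPM (adjusted p = 0.204 by edgeR, 0.0156 by DESeq2 and 0.0299 by limma-voom). TNFSF15 (TL1A) was nearly silent with ConA, at 0.154, 0 and 0 CPM, and at 3.19, 0.748 and 0.368 CPM with ConA+ALA (adjusted p = 0.0791 by edgeR, 0.0134 by DESeq2 and 0.0303 by limma-voom).

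TNF was at 37.7, 19.8 and 56.6 CPM and 48.7, 22.4 and 46.7 CPM, and IL10 at 13.2, 6.98 and 5.33 CPM and 7.55, 11 and 6.34 CPM. Both overlapped between the groups, with adjusted p of 0.958 and 0.999. IL2RA, the alpha chain of the IL-2 receptor, was at 172, 115 and 102 CPM and 149.8, 101 and 78.6 CPM, and the early activation marker CD69 at 112, 139 and 100.5 CPM and 135, 154 and 121 CPM, with adjusted p of 0.895 and 0.773. CD40LG, the T cell ligand that helps B cells, was at 42.2, 66.1 and 63.8 CPM and 73.4, 106 and 115 CPM, without overlap (adjusted p = 0.067 by edgeR, 0.0128 by DESeq2 and 0.0246 by limma-voom). ICOS, a costimulatory receptor, lay the other way, at 273, 98.9 and 98.2 CPM and 144, 74.8 and 56.4 CPM, lower in each number (adjusted p = 0.0733 by edgeR, 0.00879 by DESeq2 and 0.0237 by limma-voom), as did the checkpoint receptor LAG3 at 82.6, 73.7 and 56.7 CPM and 43, 34.9 and 26.1 CPM (adjusted p = 0.452). Of 19 tested T cell activation genes 0 passed, with 2 higher and 3 lower at an unadjusted p under 0.05, 1 higher and 1 lower by DESeq2 and 1 higher and 1 lower by limma-voom. Of 17 tested checkpoint and regulatory T cell genes 0 passed, with 1 higher and 5 lower at an unadjusted p under 0.05, 0 higher and 1 lower by DESeq2 and 0 higher and 2 lower by limma-voom.

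**Figure D4:**
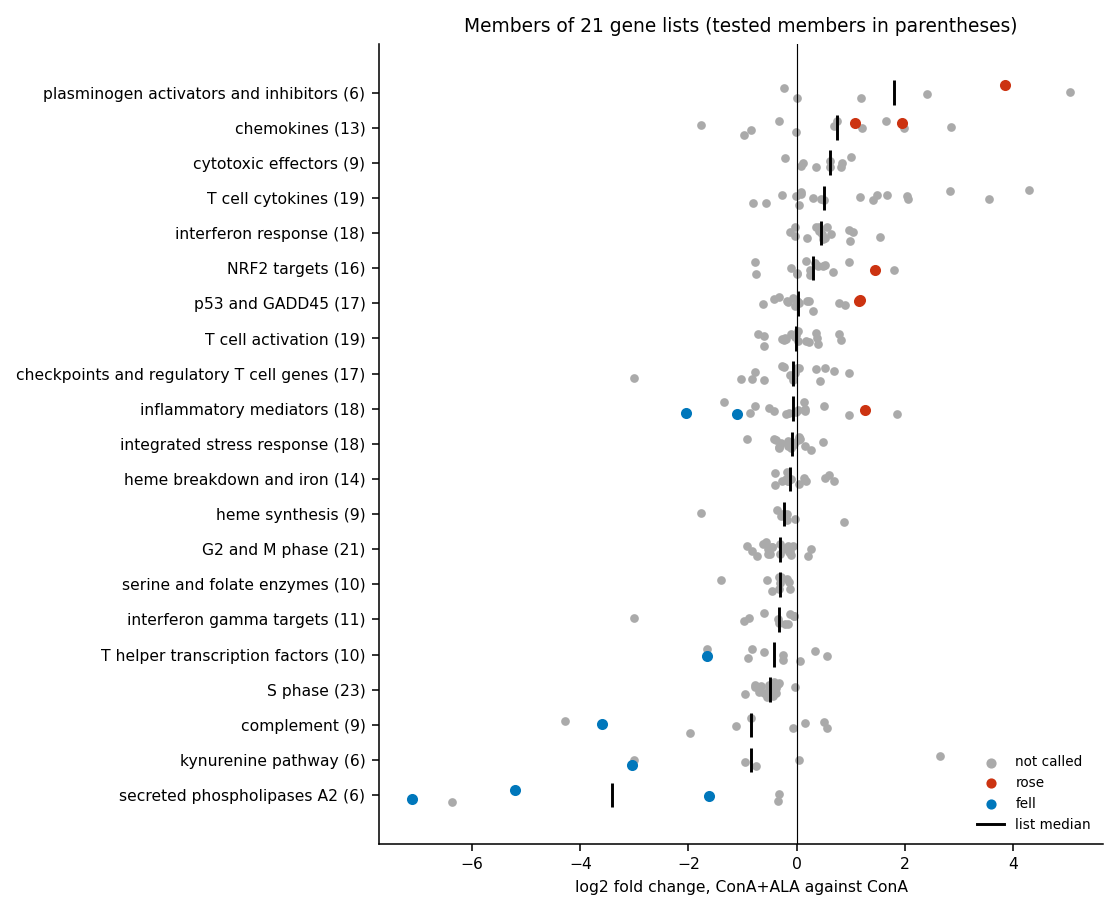
Log2 fold change of ConA+ALA against ConA (horizontal axis) for the tested members of 21 of the 42 pathway lists, 1 row per list in order of the list median (black bar), with genes that rose in red, fell in blue and did not pass in grey. The S phase list lies wholly below 0, from -0.96 to -0.02 with a median of -0.49, the phospholipase list is lowest at -3.42, and in most lists 0 or 1 member passed by edgeR.

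Genes of DNA replication lay lower with ALA as a list, with log2 fold changes from -0.96 to -0.02. By edgeR 0 of 23 tested S phase genes passed, with 13 lower at an unadjusted p under 0.05, 1 fall by DESeq2 and 0 by limma-voom. All 23 of 23 had a log2 fold change below 0 and 21 of 23 were lower in 3 of 3 numbers, with a median of -0.49. Over all genes tested 6983 of 13358 were below 0 and 18.1% were lower in 3 of 3 numbers. MCM6, a subunit of the replicative helicase, was at 446, 479 and 417 CPM with ConA and 331, 301 and 305 CPM with ConA+ALA (adjusted p = 0.167 by edgeR, 0.0461 by DESeq2 and 0.0941 by limma-voom). TYMS, thymidylate synthase, was at 159, 154 and 162 CPM and 107, 93.9 and 126 CPM (adjusted p = 0.159). Both were without overlap between the groups. Of 21 tested genes of G2 and M phase 0 passed, with 0 higher and 2 lower at an unadjusted p under 0.05 and 0 by DESeq2 or limma-voom, and 19 were below 0 (median -0.31). CDK1, the kinase that starts mitosis, was at 13, 10.9 and 13.3 CPM and 9.19, 5.16 and 6.53 CPM (adjusted p = 0.289). The proliferation marker MKI67 was at 31.5, 34.5 and 62.7 CPM and 25.5, 24.2 and 102 CPM, lower in numbers 1 and 2 and higher in number 3 (adjusted p = 0.982).

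Of 10 tested serine and folate enzymes, which supply 1-carbon units for nucleotide synthesis, 0 passed, with 0 higher and 3 lower at an unadjusted p under 0.05 and 0 by DESeq2 or limma-voom, and 10 of 10 were below 0 (median -0.31). By edgeR 0 of 18 tested type I interferon response genes passed, with 9 higher at an unadjusted p under 0.05, 2 rises by DESeq2 and 0 by limma-voom. Of the 18, 14 were higher in 3 of 3 numbers, beside 16.2% of all genes, and the median of 0.45 had the opposite sign to that of the interferon gamma targets. OAS1, which senses viral double-stranded RNA, was at 17.1, 38.9 and 26.1 CPM with ConA and 38.3, 84.6 and 47.8 CPM with ConA+ALA, and ISG15 at 20.1, 86.7 and 45.5 CPM and 46.3, 149.6 and 87.6 CPM (adjusted p = 0.122 by edgeR, 0.0025 by DESeq2 and 0.0708 by limma-voom for OAS1, and 0.126 by edgeR, 0.00498 by DESeq2 and 0.127 by limma-voom for ISG15). In both, library 2 was highest in each group. Of 9 tested cytotoxic effectors 0 passed, with 5 higher and 0 lower at an unadjusted p under 0.05, 1 higher and 0 lower by DESeq2 and 0 by limma-voom (median 0.61); perforin (PRF1) was at 48.1, 8.8 and 11.6 CPM and 62.5, 21.6 and 14 CPM (adjusted p = 0.249).

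The lists of the respiratory chain and ATP synthase lay slightly below 0, with 0 called in each by any of the 3 tools. In complex I 18 of 22 genes were below 0 and 7 were lower in 3 of 3 numbers, with a median log2 fold change of -0.07. Over all genes tested 6983 of 13358 were below 0, 18.1% were lower in 3 of 3 numbers and the median was -0.01. In complexes II and III 10 of 11 were below 0 and 8 lower in 3 of 3 numbers (median -0.16), in complex IV 9 and 2 of 10 (-0.12), and in ATP synthase 7 and 4 of 8 (-0.14). Of 13 mitochondrially encoded genes 13 were below 0 and 2 were lower in 3 of 3 numbers (-0.17). In complex IV and among the mitochondrially encoded genes the count lower in 3 of 3 numbers was near the share of all genes. At an unadjusted p under 0.05 edgeR had 3 lower in complexes II and III, 1 lower among the mitochondrially encoded and 0 in the other lists of this group. SDHB, the iron-sulfur subunit of succinate dehydrogenase, had the largest difference of these lists, at 134, 139 and 144 CPM with ConA and 91.3, 97.2 and 78.7 CPM with ConA+ALA (log2 fold change -0.63 ± 0.19, adjusted p = 0.209), with 75.9% of its exon reads unique. Of 19 glycolysis genes 0 passed, with 0 higher and 2 lower at an unadjusted p under 0.05, 0 higher and 2 lower by DESeq2 and 0 higher and 1 lower by limma-voom. HK2, hexokinase 2, was at 90.8, 39.9 and 37.5 CPM and 43.8, 20.4 and 21.9 CPM (adjusted p = 0.104 by edgeR, 0.0143 by DESeq2 and 0.0118 by limma-voom). Over the 29 pathway lists in which 0 genes passed by edgeR, medians ran from -0.49 to 0.61.

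Markers of other blood cells gave the following. Of 98 markers listed in 9 cell type lists, 74 were tested, 19 had no matching symbol (CD14 among them) and FCN1, XCR1 and CXCR2 had 0 reads in all 6 libraries. Natural killer markers summed to 27.9, 22 and 36.1 CPM with ConA and 48.8, 37.8 and 56.3 CPM with ConA+ALA, higher in 3 of 3 numbers (exact permutation test, two-sided p = 0.1). Of the 4 tested 0 passed, with 3 higher and 0 lower at an unadjusted p under 0.05, 1 higher and 0 lower by DESeq2 and 0 by limma-voom. KLRD1 was at 10.4, 8.48 and 9.1 CPM and 20.8, 16.3 and 18.9 CPM (adjusted p = 0.0791 by edgeR, 0.0124 by DESeq2 and 0.067 by limma-voom), and KLRK1 and NCR3 had log2 fold changes of 0.61 and 0.71 (adjusted p = 0.373 and 0.36), while TBX21, which these cells also express, fell. Other list members lay lower on few reads. NCR1 had 71, 0 and 8 reads with ConA and 61, 2 and 2 with ConA+ALA (log2 fold change -0.26, adjusted p = 0.971). KLRF1, at 14, 8 and 6 and 8, 0 and 0 reads, and NCAM1, at 1, 5 and 4 and 0, 0 and 2 reads, were not tested. Dendritic cell markers summed to 409, 542 and 495 CPM and 355, 418 and 385 CPM, lower in 3 of 3 numbers (p = 0.2 by the same exact test). Most of that sum was BATF3, IRF8 and CCR7, which is also in the T cell list. Of the 6 tested 0 passed by any of the 3 tools and 0 had an unadjusted p under 0.05, with 2 above 0, among them FLT3 (log2 fold change 0.52, adjusted p = 0.561), and 4 below. The part of the natural killer and dendritic cell markers in the results above was not tested. T cell markers summed to 1777, 1227 and 1075 CPM and 1781, 1428 and 1113 CPM, and 0 of 16 tested passed, with 3 higher and 1 lower at an unadjusted p under 0.05, 0 higher and 1 lower by DESeq2 and 0 higher and 1 lower by limma-voom.

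The same ALA contrast in cultures without ConA uses the other 6 libraries, though both were fitted in 1 model with shared block terms. There 6 of 13358 genes rose with ALA (0.0449%) and 0 fell by edgeR, with 447 higher and 390 lower at an unadjusted p under 0.05. DESeq2 called 51 rises and 14 falls there, and limma-voom 21 and 7. Among the 74 genes GADD45A and GADD45G also passed there by all 3 tools, and 10 passed by DESeq2 and 8 by limma-voom, among them C1QB, OSGIN1, PIR, FADS1 and SLC27A6 by both. SLC27A6 went the opposite way in the 2 settings. Its log2 fold change with ALA was -0.99 ± 0.19 in ConA cultures and 0.81 ± 0.19 in cultures without ConA. GADD45A was at 37.8, 134 and 88.5 CPM untreated and 136, 226 and 177 CPM with ALA (log2 fold change 1.19 ± 0.18, adjusted p = 0.0281), and GADD45G at 4.32, 17.7 and 6.22 CPM and 19.7, 42.1 and 23 CPM (1.75 ± 0.25, adjusted p = 0.028). Of the 45 genes that rose in stimulated cells 40 had a positive log2 fold change in resting cells, with a median of 0.35, and of the 29 that fell 23 had a negative one, with a median of -0.31; over all genes tested 49.4% were positive. In 42 of the 45 and 29 of the 29 the size was smaller in resting cells, a direction that the choice of the 74 in stimulated cells favours.

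PLA2G5 had a log2 fold change of -0.03 ± 0.71 in resting cells and TBX21 -0.55 ± 0.19. C1QB, in contrast, was at 11.4, 8.92 and 5.18 CPM untreated and 3.56, 2.75 and 0.854 CPM with ALA (-1.98 ± 0.48, adjusted p = 0.261 by edgeR), and NQO1 at 37.8, 42.4 and 66.5 CPM and 265, 133 and 96.6 CPM (1.71 ± 0.40, adjusted p = 0.474 by edgeR). The difference between the ALA effects in stimulated and resting cells was tested as an interaction. By edgeR 0 of 13358 genes passed, with 1004 at an unadjusted p under 0.05 and a smallest adjusted p of 0.105, while DESeq2 called 40 and limma-voom 5. Among the 74 genes, 36 of the 45 rises and 25 of the 29 falls had an unadjusted interaction p under 0.05, but they were chosen on 1 of the 2 contrasts that make up the interaction. The interaction was -5.18 ± 0.81 on the log2 scale for PLA2G5 and 1.97 ± 0.34 for CD9, beside -0.03 ± 0.25 for GADD45A.

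**Figure D5:**
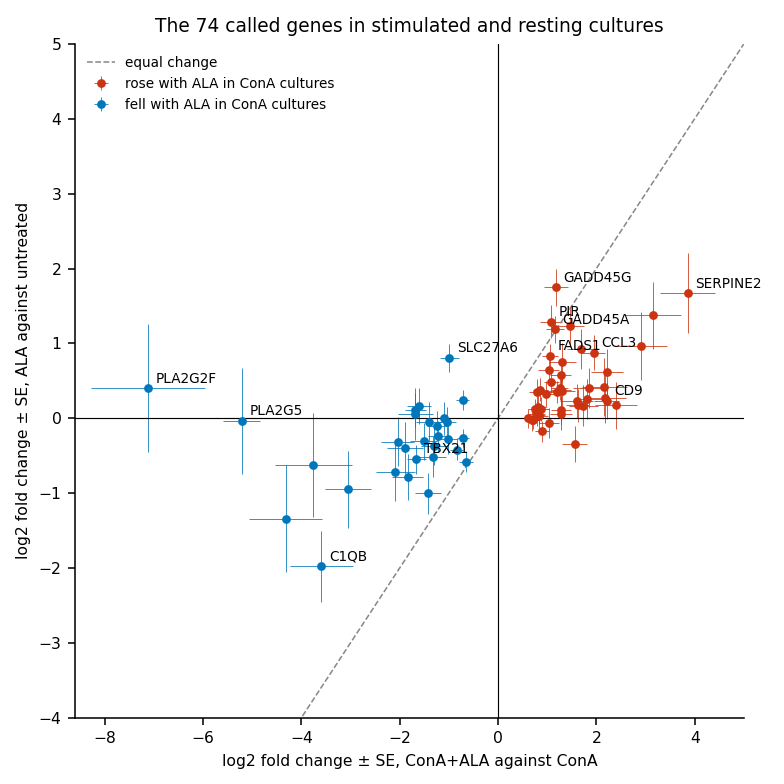
Log2 fold change ± SE of the 74 called genes with ALA in ConA cultures (horizontal axis) and in cultures without ConA (vertical axis), red for rises and blue for falls in ConA cultures, with a dashed line of equal change. Most points lie nearer to 0 on the vertical than on the horizontal axis; GADD45A and GADD45G lie on or above the dashed line, and the genes were chosen on the horizontal axis.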

How the data were processed

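Per the labels' protocols, poly(A) RNA was made into NEBNext Ultra II libraries and read as 75 bp paired ends on a NextSeq 500. CanFam3.1 and bcl2fastq are named in the submitters' processing notes. Which aligner and counter the authors used, and whether strand was counted, is not given in the sources used here. Per the file headers, the deposited tables hold exon reads as raw counts with no normalization and TPM as the authors' own per-length normalization; TPM was used to compare levels between genes and entered no test.

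Exon read counts were fitted in edgeR 4.0.16 (R 4.3.3) after TMM scaling and filterByExpr, with the robust quasi-likelihood F-test, in 1 model of all 12 libraries with 4 group means and the replicate number as a block, so the untreated and ALA libraries add to the estimated spread. A gene passed at a Benjamini-Hochberg adjusted p under 0.05 over 13358 genes. The SE is the size of the log2 fold change over the square root of F. The biological coefficient of variation was 0.217 with the block and 0.422 without it. The pairing comes from the numbers in the titles; deviations from group means correlated at 0.376 to 0.748 between same-numbered libraries (18 pairs) and at -0.498 to 0.206 between differently numbered ones (36 pairs). The scripts were tested on simulated data.

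Genes were named as the 15 largest rises and 15 largest falls that passed, had a symbol and averaged 20 or more counts in the higher group, as up to 4 members of a list (smallest p first), and as 16 genes whatever their result. The 42 pathway lists and 9 marker lists, which share some genes, come from general knowledge, and the comparison, lists and named genes were chosen with earlier results of these data known. Sequences and promoter motifs were not analysed here. Alternatives were no block, DESeq2 1.42.0, limma-voom (limma 3.58.1), DESeq2-type size factors, other filters, unique exon reads, total gene reads, omission of mitochondrial and hemoglobin genes, the 6 compared libraries alone, each library or number left out and, added after seeing the data, a block separate for cultures with and without ConA. Python 3.11.15, numpy 2.4.6, pandas 2.3.3, scipy 1.17.1 and matplotlib 3.10.9 were used for summaries and figures. Intervals of count ratios cover counting error only.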

Additional observations from a re-analysis of the deposited data

How the results depend on the processing

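The count of 74 called genes became 0 without the replicate block, and without the pairing by number 0 of the named calls held. It became 305 with DESeq2, 154 with limma-voom, 120 without a filter, 119 on total gene reads, 426 with only the 6 ConA and ConA+ALA libraries and 181 with a block separate by stimulation, a setting chosen after seeing the data that ended the calls of IL18, FCGR1A, TGM2 and GADD45G. It stayed within 1.5 times of 74 with DESeq2-type size factors, a minimum mean of 50 counts, unique exon reads only and mitochondrial and hemoglobin genes omitted. Leaving out 1 library or 1 number gave 7 to 171 calls. Of the 74 calls 63 were lost without ConA 1, 63 without ConA 2, 57 without ConA+ALA 1, 55 without ConA+ALA 2 and 55 without ConA+ALA 3. Among the 38 named genes that passed, 0 reversed in any alternative. All 74 calls moved in 1 direction in 3 of 3 numbers, so a reversal could hardly arise and its absence adds no support. The count of 0 for the interaction became 40 with DESeq2, 5 with limma-voom, 9 without a filter, 3 on total gene reads and 8 with the block separate by stimulation, and 0 to 21 with a library or number left out. With 3 libraries a group, no single value can reach an exact permutation p below 0.1. Genes near or below 1 CPM, such as TNFSF15, rest on few reads, and a difference there was not detectable at this depth unless it was large.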

Other observations

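The fit of the 6 stimulated libraries alone led with several genes that edgeR did not call in the model of all 12, and they were chosen here after their values were seen. The genes of smallest p in that fit with a symbol included the gelatinase MMP9, the neutrophil chemokine CXCL6, the epidermal growth factor receptor ligands AREG (amphiregulin) and HBEGF, and the epithelial-acting cytokine IL22, all higher with ALA, and the acute-phase protein gene SAA1_1 and clusterin (CLU), lower with ALA. CXCL6 was at 26.2, 12.2 and 13.9 CPM with ConA and 344, 131 and 164 CPM with ConA+ALA (adjusted p = 1.07e-10 by edgeR in that fit, and over all 12 libraries 0.401 by edgeR, 0.0364 by DESeq2 and 0.311 by limma-voom). AREG was at 0.0385, 1.27 and 1.71 CPM and 15.3, 80.2 and 153 CPM (adjusted p = 1.71e-10 in that fit, and over all 12 libraries 0.132 by edgeR, 2.53e-08 by DESeq2 and 0.391 by limma-voom), and HBEGF at 9.16, 9.43 and 13.2 CPM and 59.9, 41.4 and 74.4 CPM (1.07e-07, and over all 12 libraries 0.126 by edgeR, 0.0017 by DESeq2 and 0.0489 by limma-voom). IL22 was at 8.9, 9.35 and 16.1 CPM and 84.6, 123 and 183 CPM (2.8e-10, and over all 12 libraries 0.462 by edgeR, 0.283 by DESeq2 and 0.333 by limma-voom). MMP9 had an adjusted p of 5.4e-11 in that fit, and over all 12 libraries 0.175 by edgeR, 2.68e-05 by DESeq2 and 0.117 by limma-voom. In each of these genes every ConA+ALA library lay above every ConA library, and all but IL22 passed by DESeq2 over all 12. With the block separate for cultures with and without ConA, the adjusted p by edgeR was 0.187 for MMP9, 0.323 for CXCL6, 0.191 for AREG, 0.071 for HBEGF and 0.00489 for IL22.

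Clusterin, a secreted chaperone, was at 257, 147 and 80.3 CPM with ConA and 54.2, 34.5 and 19.3 CPM with ConA+ALA (adjusted p = 2.09e-08, and over all 12 libraries 0.319 by edgeR, 0.0219 by DESeq2 and 0.24 by limma-voom). SAA1_1, a numbered copy of serum amyloid A with 90% of its exon reads unique, was at 849, 757 and 865 CPM and 173, 118 and 119.9 CPM (6.38e-09, and over all 12 libraries 0.249 by edgeR, 0.00354 by DESeq2 and 0.192 by limma-voom). By edgeR with the separate block the adjusted p was 0.261 for SAA1_1 and 3.26e-05 for CLU. The cultures without ConA spread widely in most of them: untreated libraries were at 1.8, 10.9 and 52.6 CPM and ALA libraries at 80.1, 8.83 and 177 CPM for CXCL6, at 18.9, 60.1 and 314 and 249, 51.4 and 2243 CPM for MMP9, at 0.27, 7.18 and 8.61 and 3.85, 3.73 and 166 CPM for AREG, and at 27, 18.5 and 58 and 52.7, 21.2 and 58.4 CPM for CLU. The 426 genes called in the 6-library fit had the same sign in the model of 12 libraries in 426 of 426, and 71 of them were among its 74 calls. Both fits compare the same 6 libraries by number, so like signs follow from the design and add no support.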
